A study of Mus musculus with 15 samples.

Results

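The genes described are 9 liver genes that make glycogen, break it down or set the balance between these reactions, namely Gys2, Gyg, Gbe1, Ugp2, Pgm1, Pygl, Phka2, Ppp1r3b and Ppp1r3c. They were chosen by name from the glycogen pathway by a rule that uses no measured value, although earlier results of these arrays were known, and are 9 of the 18193 genes measured. They are covered by 18 probe sets, which are groups of short probes to a transcript. Liver RNA was hybridised to Affymetrix whole genome mouse arrays, 1 array per mouse, with 5 mice in each of 3 groups. All mice were male and 10 weeks old at the start. The normal group was C57BL/6J mice on chow that received distilled water. The KKAy model group consisted of KKAy mice, which carry the lethal yellow allele of agouti and become obese and diabetic, on a high-fat diet with distilled water. The XKA-H group was KKAy mice on the same diet given Xiao-Ke-An (XKA), a Chinese herbal medicine, by gavage at 1.5 g/kg daily for 32 days. Livers of these groups are called normal, model and treated livers where comparisons are given. C57BL/6J and KKAy mice differed in strain, diet and supplier at once, so these cannot be told apart. The methods name a fed state for the sacrifice and a fasting state for the blood taken with it, and the feeding state of the livers is therefore not settled, although feeding is known to alter glycogen genes.

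Glycogen is the branched glucose polymer in which the liver keeps sugar between meals. Glucose 6-phosphate is turned into UDP-glucose by a mutase and a pyrophosphorylase, glycogenin lays down a primer, glycogen synthase lengthens the chains and the branching enzyme adds branch points. Glycogen phosphorylase, activated by phosphorylase kinase, releases glucose units again, and targeting subunits bring protein phosphatase 1 to the particle, where it activates the synthase and inactivates the phosphorylase. RNA levels do not show the phosphorylation that sets the activity of these enzymes.

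Each array was scaled to a median of 1000, so that a scaled signal of 1000 is the array's middle probe set, and changes are differences in log2 of the scaled signal with the standard error (SE) from limma. A log2 change is a difference of mean log2 signals, so its fold is that of geometric means and departs slightly from the ratio of the arithmetic means printed beside it. Fewer cells of a type and less RNA per cell cannot be told apart in whole liver. None of 9 measured hepatocyte markers passed the test in any comparison, and the summed signal of these markers was 3673271 to 6192743 in the C57BL/6J group, 4379420 to 6973197 in the KKAy model group and 4104624 to 5474213 in the XKA-H group. All of these markers but Apoa1 and Cps1 had higher means in the KKAy model group than in the C57BL/6J group. Of 10 acute-phase genes, a list added after values were seen, 6 were higher in the KKAy model group than in the C57BL/6J group. Their summed signal was 1653304 to 2521844 in the C57BL/6J group, 2956024 to 7378733 in the KKAy model group and 1960270 to 5740684 in the XKA-H group. The mean log2 signal of these genes was 1.0 above the group mean in KKAy model replicate 3, 1.17 above it in XKA-H replicate 1 and 0.71 above it in XKA-H replicate 2. Of markers of other cells, 2 of 8 endothelial, 1 of 8 stellate and 1 of 3 erythroid genes were higher and 1 of 10 Kupffer cell genes was lower in the KKAy model group than in the C57BL/6J group. Among all genes 10.6% were higher and 2.43% lower in this comparison. The lower Kupffer cell gene was Marco. All other genes of that list had higher means in the KKAy model group, and none of them passed. Summed Kupffer cell signal was 148816 to 267094 in the C57BL/6J group, 170665 to 432831 in the KKAy model group and 134000 to 260942 in the XKA-H group. The summed erythroid signal was 7770 to 16432 in the C57BL/6J group, 25444 to 42215 in the KKAy model group and 22832 to 31989 in the XKA-H group. Only 3 of 7 listed erythroid genes were measured, and most of this sum was Alas2 (means 9677, 35004 and 25185 in the same order). Slc4a1 had its highest mean in the C57BL/6J group (2204, 1345 and 1630), and Hba-a1 was below the array median (610, 843 and 468). The part of these markers and of the acute-phase signal in the glycogen results was not tested, and values are given with the livers of highest signal in their groups (replicates 3 and 1), or one of them, left out where this changes a call.

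Between model and normal livers, Gyg and Gbe1 rose and none of the 9 genes fell (limma, adjusted p under 0.05). Ppp1r3c was the one other member past an unadjusted p of 0.05. Among all genes, 10.6% passed upward and 2.43% downward. The estimate was positive for 8 of the 9 genes and for 11422 of all 18193 genes, with medians of 0.33 and 0.15. The count of 8 depends on the scaling. Without scaling to a median of 1000, Phka2 (-0.16), Ppp1r3b (-0.18) and Pgm1 (-0.087) had negative log2 changes, as Ugp2 did with either. The median of all genes was then -0.04. No glycogen gene had groups without overlap, against 10.6% of all genes. Between treated and model livers none of the 9 genes passed, against 0.176% of all genes. At an unadjusted p under 0.05, 3 of the 9 were past it (Ppp1r3b, Ppp1r3c and Pygl), against 8.61% of all genes. The median of the 9 was -0.08 against -0.06 for all genes, and none had groups without overlap, against 1.42% of all genes. Between treated and normal livers none of the 9 genes passed, against 7.48% of all genes, and 3 (Gys2, Gbe1 and Ppp1r3b) were past an unadjusted p of 0.05, against 19.4%. The median of the 9 was 0.18 against 0.10 for all genes, and none had groups without overlap, against 7.03%. The comparisons share arrays and are not independent of each other.

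**Figure D1:**
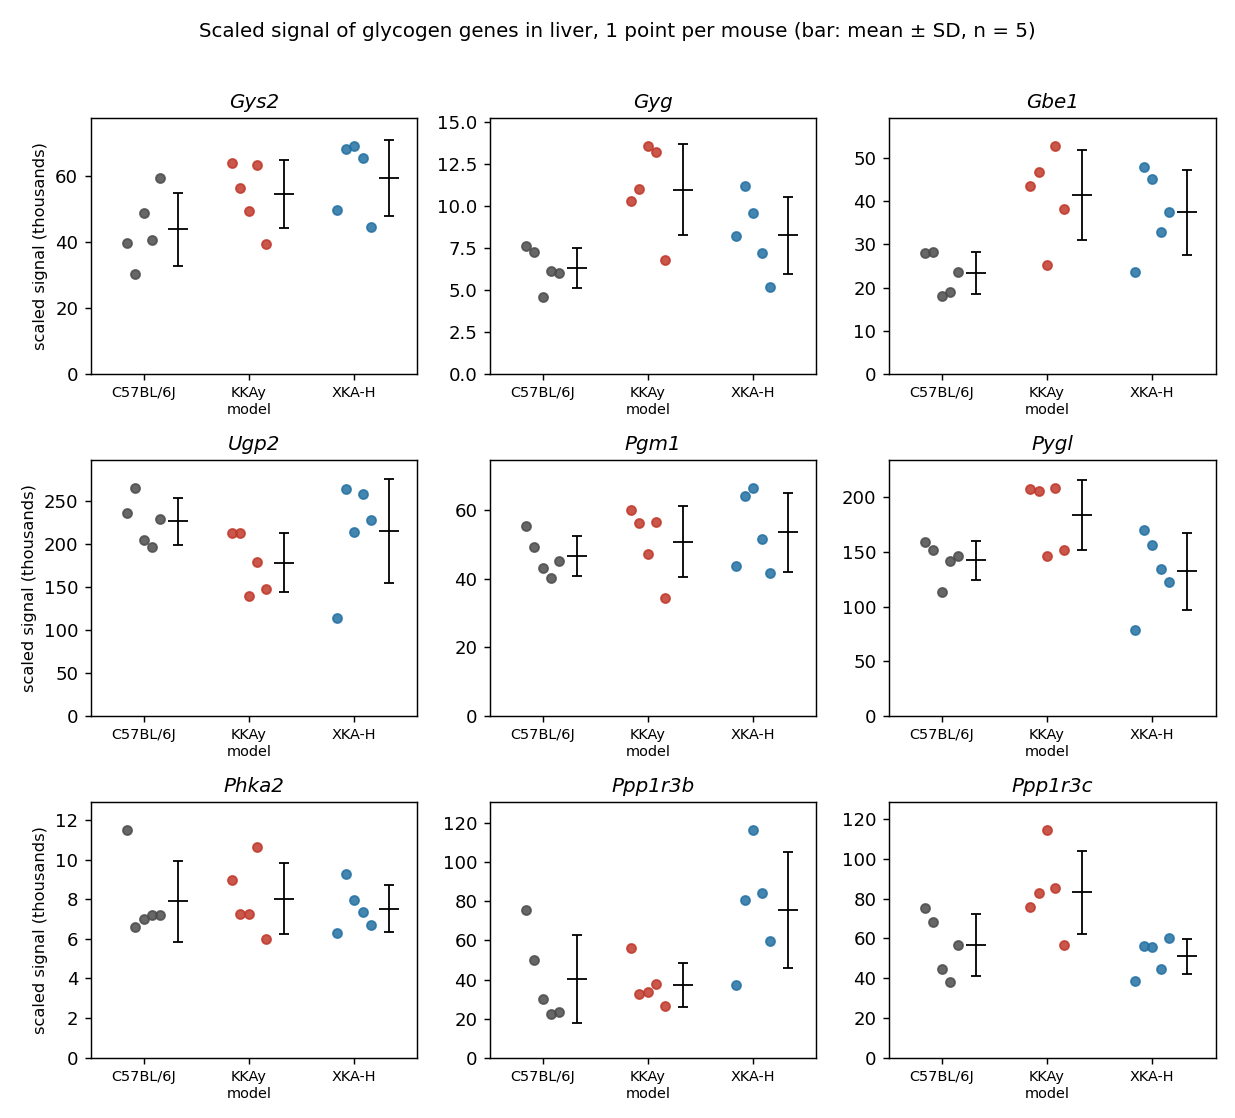
Scaled signal, divided by 1000, of the 9 glycogen genes in each liver. Points are single mice of the C57BL/6J, KKAy model and XKA-H groups, and bars are the mean ± SD (n = 5). For Gyg, 4 of 5 KKAy model livers lie between 10273 and 13570, above the highest C57BL/6J value of 7590.

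Sequences of the promoters of the 3 genes whose brightest probe sets carried the largest differences between model and normal livers are shown here as context for the values. Each spans 300 bases around the gene start, most of them before it, from RefSeq on GRCm38.p6. Capitals mark CACGTG, the E-box read by carbohydrate-response and clock factors among others. Gyg lies at chr3:20155067-20155366 (minus strand), Gbe1 at chr16:70313699-70313998 (plus strand) and Ppp1r3c at chr19:36736555-36736854 (minus strand), and each sequence is written 5′ to 3′ on the gene's strand.
Gyg: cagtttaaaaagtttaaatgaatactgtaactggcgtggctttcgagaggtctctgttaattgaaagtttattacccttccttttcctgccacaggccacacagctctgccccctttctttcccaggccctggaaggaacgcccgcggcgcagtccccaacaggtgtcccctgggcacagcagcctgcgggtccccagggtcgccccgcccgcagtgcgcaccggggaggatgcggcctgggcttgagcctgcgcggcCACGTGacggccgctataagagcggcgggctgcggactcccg
Gbe1: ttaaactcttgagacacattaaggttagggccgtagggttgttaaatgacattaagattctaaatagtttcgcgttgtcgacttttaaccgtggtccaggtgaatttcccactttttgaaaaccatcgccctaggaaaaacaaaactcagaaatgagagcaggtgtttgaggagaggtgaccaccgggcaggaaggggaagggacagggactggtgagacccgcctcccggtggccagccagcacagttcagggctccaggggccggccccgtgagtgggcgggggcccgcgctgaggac
Ppp1r3c: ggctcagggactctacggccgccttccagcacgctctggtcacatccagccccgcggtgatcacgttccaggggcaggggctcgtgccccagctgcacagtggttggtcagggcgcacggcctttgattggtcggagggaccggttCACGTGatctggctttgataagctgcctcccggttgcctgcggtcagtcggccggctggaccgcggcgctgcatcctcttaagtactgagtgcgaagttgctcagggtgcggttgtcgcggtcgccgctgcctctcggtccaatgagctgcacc
CACGTG stood at base 259 of the Gyg window and at base 147 of the Ppp1r3c window and was not in the Gbe1 window. The table used held windows for 7 of the 9 genes, and of these only Gyg and Ppp1r3c had the motif, which was in 7.15% of the 32851 windows of all genes. The motifs TGACGTCA, the cyclic AMP response element (1.79% of windows), and TTGTTTAC, a forkhead site (1.23%), were in none of the 7. All motifs were searched on both strands, and none contains another. A match is only a description of the letters.

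Gyg encodes glycogenin, the protein that primes a new glycogen particle (chromosome 3, 20122083 to 20155117). Its scaled signal was 10273, 11016, 13570, 13224 and 6770 in KKAy model replicates 1 to 5 and 7590, 7234, 4554, 6117 and 5988 in C57BL/6J replicates 1 to 5. All KKAy model livers but replicate 5 lay above every C57BL/6J liver. The means were 10971 ± 2737 and 6297 ± 1195 (mean ± SD, n = 5), with geometric means 1.72-fold apart and a log2 change of 0.78 (SE 0.21, limma adjusted p = 0.0187). The XKA-H livers were at 8212, 11158, 9571, 7165 and 5166, with a mean of 8255 ± 2286, and overlapped both other groups. The log2 change from the KKAy model group was -0.42 (limma adjusted p = 0.616, 95% interval -0.86 to 0.03). The call for Gyg in the KKAy model group rests on few arrays: the adjusted p was 0.0571 without KKAy model replicate 3, 0.0574 without KKAy model replicate 4 and 0.0622 without C57BL/6J replicate 3. Without both livers of highest acute-phase signal the log2 change was 0.69 (limma adjusted p = 0.0579). The brightest probe set of Gyg has the suffix _s_at, which Affymetrix gives to probe sets that can read several related transcripts. A second, dimmer probe set gave a log2 change of 0.36 in the same comparison (adjusted p over all probe sets 0.326) and 0.30 between treated and model livers, where the brighter one gave -0.42. With the mean of both probe sets the log2 change between model and normal livers was 0.57 (limma adjusted p = 0.0553).

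Gbe1 encodes the branching enzyme, which moves stretches of a chain to make branch points (chromosome 16, 70313949 to 70569720). The branching enzyme had scaled signals of 43607, 46851, 25279, 52837 and 38307 in the KKAy model livers and 28006, 28226, 18074, 18961 and 23596 in the C57BL/6J livers. Only KKAy model replicate 3, one of the livers with a high acute-phase signal, lay within the C57BL/6J range. The means were 41376 ± 10427 and 23373 ± 4812 (n = 5), with geometric means 1.75-fold apart and a log2 change of 0.81 (SE 0.21, limma adjusted p = 0.0124). This call held with each of the 15 arrays left out in turn, with log2 changes of 0.71 to 0.97. The XKA-H livers were at 23604, 48019, 45056, 32849 and 37412, with replicate 1 lowest. Their mean of 37388 ± 9778 differed from the KKAy model mean by a log2 change of -0.15 (limma adjusted p = 0.895, 95% interval -0.58 to 0.28). Against the C57BL/6J group the log2 change was 0.66 (SE 0.21, limma adjusted p = 0.0574), and it passed without XKA-H replicate 1 (0.81, limma adjusted p = 0.0125), without KKAy model replicate 3 (adjusted p = 0.0288) and without C57BL/6J replicate 1 (adjusted p = 0.0490). It passed in only these 3 of the 15 sets with an array left out. Without XKA-H replicate 2 the limma adjusted p was 0.1585.

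Gys2, the liver form of glycogen synthase (chromosome 6, 142422612 to 142473130), did not pass in any comparison. Scaled signals of the synthase were 39862, 30304, 48992, 40529 and 59657 in the C57BL/6J livers, 64141, 56416, 49537, 63407 and 39417 in the KKAy model livers and 49847, 68300, 69285, 65649 and 44588 in the XKA-H livers. The ranges of the 3 groups overlapped, with the KKAy model and XKA-H livers spread over much the same span. Means were 43869 ± 11031, 54584 ± 10345 and 59534 ± 11473 (n = 5). For the synthase a log2 change of 0.33 was measured between model and normal livers (SE 0.18, limma adjusted p = 0.271) and 0.12 between treated and model livers (adjusted p = 0.900). Between treated and normal livers it was 0.45 (limma adjusted p = 0.152, unadjusted p = 0.0204).

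Ugp2 encodes UDP-glucose pyrophosphorylase, which makes the sugar donor of the synthase (chromosome 11, 21321126 to 21371267). Livers of the C57BL/6J group ranged from 196109 to 264987 in scaled signal (median 229189) and KKAy model livers from 139210 to 212465 (median 178733), with overlap between 196109 and 212465. The log2 change was -0.36 (SE 0.20, limma adjusted p = 0.289). The brightest probe set has the suffix _x_at, given to probe sets that can also bind other sequences. All 5 probe sets of the gene gave a negative estimate there, from -0.25 to -0.45, and none passed. This is the member whose call depends on the scaling: with the values as deposited the log2 change was -0.55 (limma adjusted p = 0.0495) and after quantile normalization it was -0.53 (limma adjusted p = 0.0449). The XKA-H livers were at 113595, 263367, 213865, 257539 and 228005, so that replicate 1 was far below the other 4. The log2 change from the KKAy model group was 0.24 (limma adjusted p = 0.799) and without that array 0.45 (adjusted p = 0.301).

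Pgm1, a phosphoglucomutase that interconverts glucose 1-phosphate and glucose 6-phosphate (chromosome 4, 99929451 to 99987294; Entrez 72157, long called Pgm2 in mouse), had means of 46600 ± 5826, 50814 ± 10368 and 53512 ± 11435 in the C57BL/6J, KKAy model and XKA-H groups (n = 5). The groups ranged from 40275 to 55264, 34354 to 59971 and 41632 to 66502, so all overlapped. Log2 changes were 0.11, 0.08 and 0.18 in the comparisons of KKAy model with C57BL/6J, XKA-H with KKAy model and XKA-H with C57BL/6J (limma adjusted p = 0.753, 0.943 and 0.618). The first of these had a 95% interval of -0.23 to 0.45, and its sign turned to -0.09 in the values as deposited.

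Pygl, the liver glycogen phosphorylase that carries out the main step of breakdown (chromosome 12, 70190815 to 70227683), had scaled signals of 207792, 205776, 146434, 208672 and 151978 in the KKAy model livers. The XKA-H livers were at 78103, 170045, 156079, 134668 and 122229 and the C57BL/6J livers at 158934, 151807, 113055, 141593 and 146227. KKAy model replicates 1, 2 and 4 lay above every liver of the other groups, replicates 3 and 5 lay among them, and XKA-H replicate 1 was the lowest of all. Means were 184130 ± 31959 in the KKAy model group, 132225 ± 35477 in the XKA-H group and 142323 ± 17595 in the C57BL/6J group (n = 5). The log2 change was 0.36 between model and normal livers (SE 0.19, limma adjusted p = 0.234). XKA-H livers differed from KKAy model livers by -0.51 (limma adjusted p = 0.397, unadjusted p = 0.0127), and without XKA-H replicate 1 it was -0.33. Against the C57BL/6J group the XKA-H estimate was -0.15 (limma adjusted p = 0.752).

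Phka2 encodes the liver alpha subunit of phosphorylase kinase, the enzyme that activates the phosphorylase (chromosome X, 160501904 to 160598879). Its brightest probe set ranged from 6582 to 11502 in the C57BL/6J livers, 6016 to 10623 in the KKAy model livers and 6312 to 9278 in the XKA-H livers. C57BL/6J replicate 1, at 11502, was far above the other 4 of its group, which lay at 7194 or less. The log2 change was 0.03 between model and normal livers and -0.08 between treated and model livers (limma adjusted p = 0.949 and 0.946, 95% intervals -0.34 to 0.40 and -0.45 to 0.29). A second probe set, with group means of 773, 382 and 930 that are below the array median, gave -1.90 and 2.14 in these comparisons, and neither passed (adjusted p over all probe sets 0.0765 and 0.303). The third probe set, dimmer still with group means of 146, 148 and 111, gave -0.13 and -0.27.

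Ppp1r3b encodes the targeting subunit that holds protein phosphatase 1 on glycogen in liver (chromosome 8, 35375694 to 35388139). Its scaled signal was 56180, 32527, 33713, 37945 and 26334 in the KKAy model livers and 37008, 80789, 116593, 84153 and 59973 in the XKA-H livers. Every XKA-H liver but replicate 1, the one with the highest acute-phase signal, lay above every KKAy model liver. Means were 37340 ± 11322 and 75703 ± 29640 (n = 5), with geometric means 1.96-fold apart. Its log2 change of 0.97 (SE 0.32) was the largest estimate among the 9 genes in this comparison and did not pass over all genes (limma adjusted p = 0.312, unadjusted p = 0.00630). Leaving out each array in turn gave 0.79 to 1.20, with adjusted p from 0.117 to 0.514. The C57BL/6J livers were spread from 22547 to 75707, with replicates 1 and 2 at 75707 and 49809 and the other 3 at 29862 or less, and their mean was 40293 ± 22634. The KKAy model group differed from them by a log2 change of 0.01 (SE 0.32, limma adjusted p = 0.991). The XKA-H group differed from them by 0.98 (limma adjusted p = 0.0686), which became 1.21 with an adjusted p of 0.0163 without XKA-H replicate 1 and 1.24 with an adjusted p of 0.0112 without C57BL/6J replicate 1. It passed in only these 2 of the 15 sets with an array left out. Without C57BL/6J replicate 4 the limma adjusted p was 0.191.

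Ppp1r3c encodes another targeting subunit of the phosphatase, called PTG, which also binds the synthase and the phosphorylase (chromosome 19, 36731731 to 36736604). For PTG the scaled signal was 75618, 83013, 114536, 85421 and 56762 in the KKAy model livers and 38441, 56012, 55473, 44680 and 60005 in the XKA-H livers. The groups overlapped only through KKAy model replicate 5 and XKA-H replicate 5. Means were 83070 ± 20876 and 50922 ± 8998 (n = 5), and the log2 change was -0.69 (SE 0.20, limma adjusted p = 0.212, unadjusted p = 0.00228). The C57BL/6J livers were at 75202, 68333, 44654, 37860 and 56700, with a mean of 56550 ± 15633. The log2 change from this group was 0.56 in the KKAy model group (limma adjusted p = 0.0654) and -0.12 in the XKA-H group (adjusted p = 0.802). Without KKAy model replicate 5 the difference between model and normal livers was 0.69 with an adjusted p of 0.0194, and without C57BL/6J replicate 1 it was 0.68 with an adjusted p of 0.0285. It passed in only these 2 of the 15 sets with an array left out. Without C57BL/6J replicate 4 the limma adjusted p was 0.190. The second probe set of the gene, with group means of 3132, 2993 and 2541, gave -0.09 between model and normal livers and -0.21 between treated and model livers. With the mean of both probe sets the log2 change between model and normal livers was 0.24 and did not pass in limma.

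**Figure D2:**
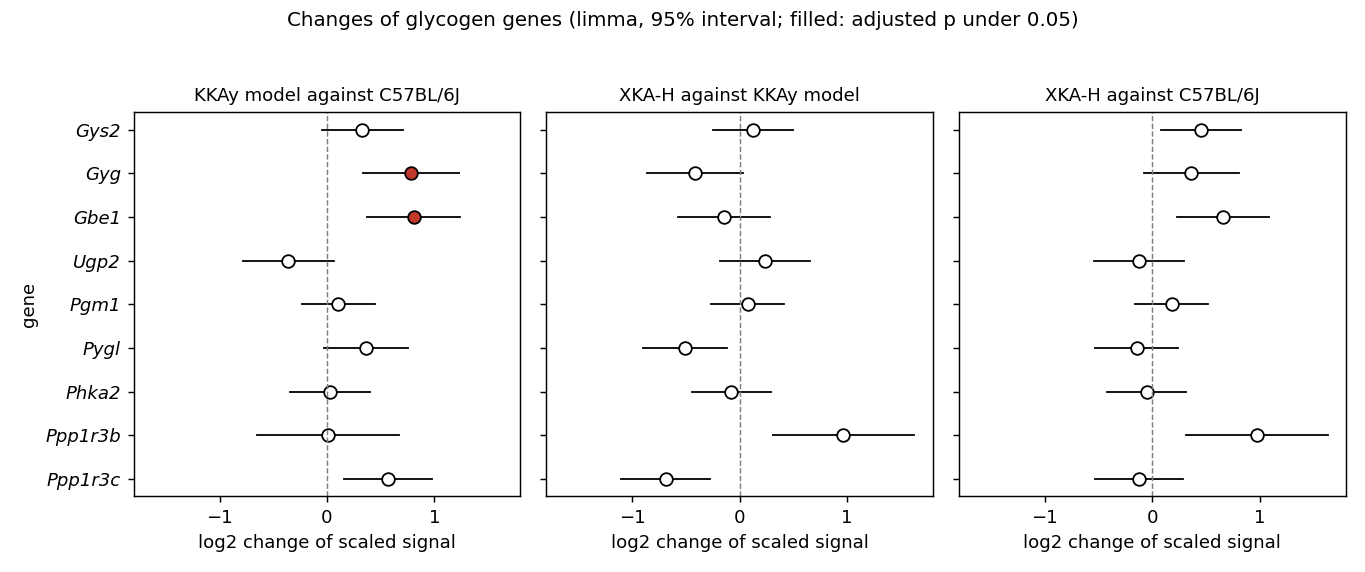
Log2 change of the scaled signal of each glycogen gene in the 3 comparisons, with 95% intervals from limma. Filled points passed an adjusted p of 0.05 over 18193 genes, which are Gyg at 0.78 and Gbe1 at 0.81 in the KKAy model group against C57BL/6J, and Ppp1r3b at 0.97 has the highest estimate between XKA-H and KKAy model.

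**Figure D3:**
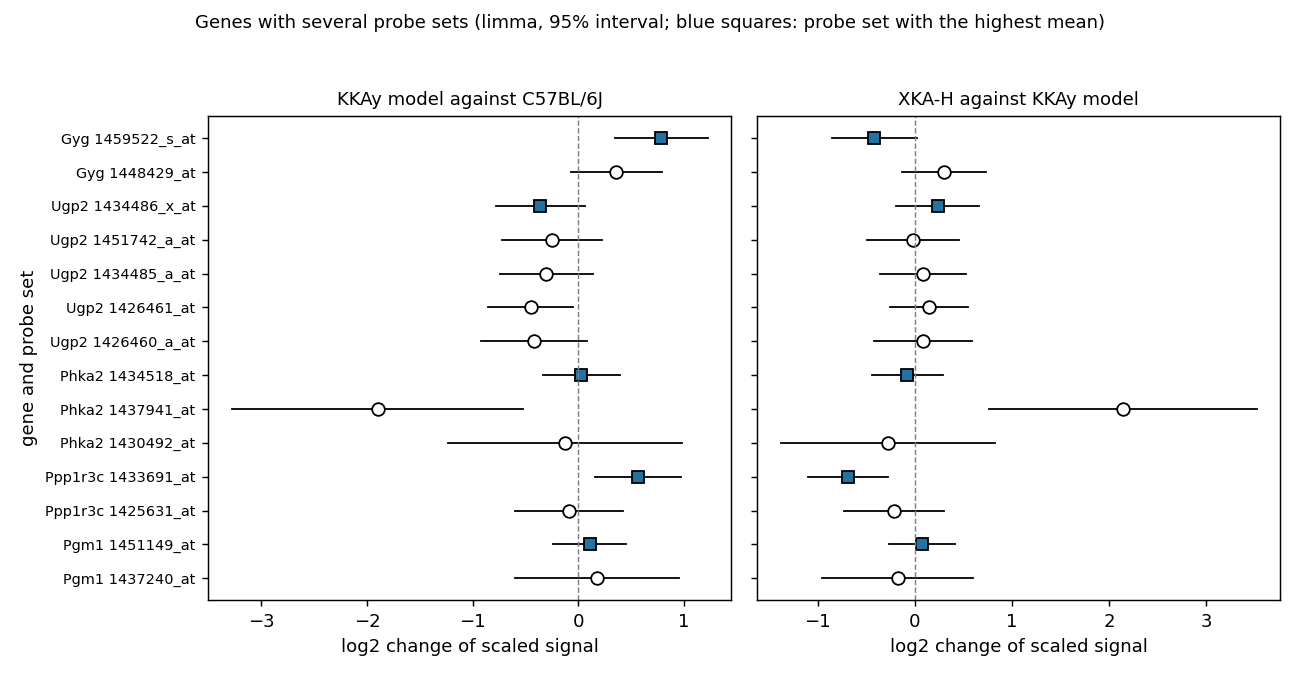
Log2 change of every probe set of the 5 glycogen genes that have several, with 95% intervals from limma, for KKAy model against C57BL/6J and XKA-H against KKAy model. Squares mark the brightest probe set of a gene, and the Gyg probe sets lie on opposite sides of 0 in the second comparison, at -0.42 and 0.30.

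The levels of synthase and phosphorylase RNA were also set against each other within each liver. A ratio within an array does not change when the whole array is multiplied by a common factor, as in the scaling used here. Quantile normalization can change it, and the ratio was not computed after that step. The log2 ratio of Gys2 to Pygl, given relative to the C57BL/6J mean, was 0.03, -0.14, 0.16, 0.01 and -0.22 in the KKAy model livers and 1.08, 0.41, 0.55, 0.69 and 0.27 in the XKA-H livers. Every XKA-H liver was above every KKAy model liver. The group means differed by 0.63, a 1.55-fold change in the ratio (SD 0.31 in the XKA-H and 0.15 in the KKAy model group, n = 5, exact two-sided permutation test, p = 0.00794, the smallest that 252 assignments allow, adjusted p over the 3 comparisons 0.0238). The C57BL/6J livers were at -0.27, -0.60, 0.52, -0.08 and 0.43 and overlapped both other groups. The KKAy model mean minus the C57BL/6J mean was -0.03 (exact permutation p = 0.889), and the XKA-H mean minus the C57BL/6J mean was 0.60 (exact permutation p = 0.0556, adjusted p = 0.0833). The XKA-H liver with the highest ratio was replicate 1. Without it the difference from the KKAy model group was 0.51 with an adjusted exact permutation p of 0.0238, and without KKAy model replicate 3 as well it was 0.56 with an adjusted p of 0.0857. The unadjusted p behind that last value is the smallest that 4 arrays against 4 allow, so with 3 comparisons it says nothing about stability. The treated and model livers did not overlap, so leaving out 1 liver could not undo the call. The p without XKA-H replicate 1 therefore says nothing about stability either. The ratio was chosen with earlier results of these arrays known.

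The targeting subunits of the phosphatase were set against each other in the same way, after their values had been seen, and are given with no test. The log2 ratio of Ppp1r3b to Ppp1r3c, relative to the C57BL/6J mean, was 0.18, -0.74, -1.16, -0.56 and -0.50 in the KKAy model livers and 0.55, 1.14, 1.68, 1.52 and 0.61 in the XKA-H livers. The means were -0.56 ± 0.48 and 1.10 ± 0.51 (SD, n = 5), and the 2 sets of livers did not overlap. The C57BL/6J livers ran from -0.66 to 0.62, between and across both. Ppp1r3b had the highest and Ppp1r3c the lowest log2 change of the 9 genes between treated and model livers. A gap between these groups was therefore favoured by the choice of pair. For both ratios, how often other gene pairs separate treated from model livers was not examined.

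**Figure D4:**
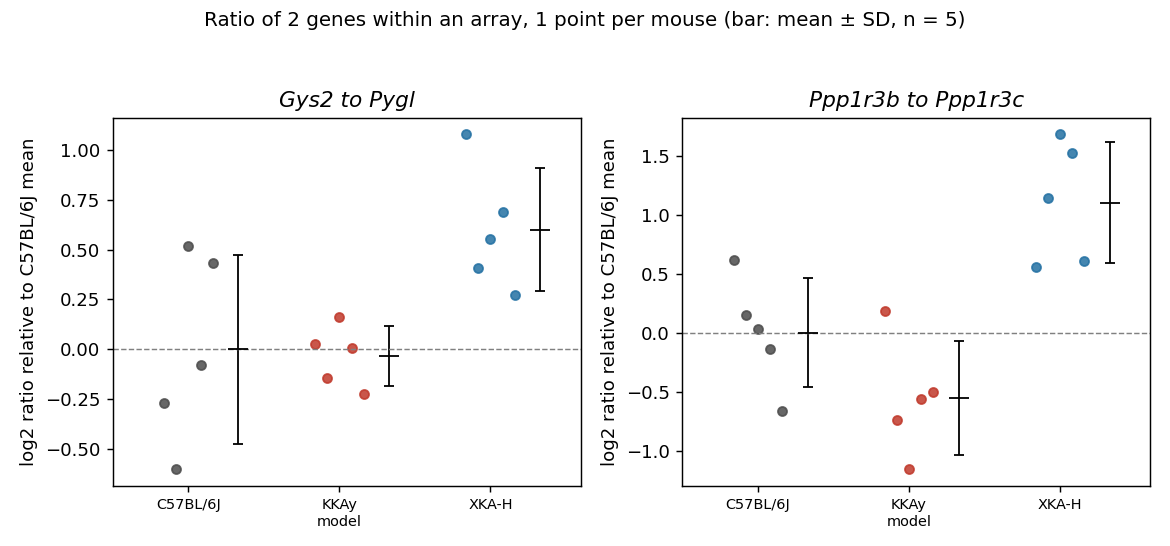
Log2 ratio of Gys2 to Pygl and of Ppp1r3b to Ppp1r3c within each array, relative to the mean of the C57BL/6J group. Points are single mice, bars are the mean ± SD (n = 5), and in both panels all 5 XKA-H livers lie above all 5 KKAy model livers. The second pair was chosen after its values were seen, and how often other gene pairs separate these groups was not examined.

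The reverse rate (RR) of the methods is the share of the difference between model and normal means that is absent in treated mice, so that 1 is a return to the normal mean and 0 is no return. RR was 0.581 for Gyg (0.416 to 0.737 with each array left out in turn) and 0.222 for Gbe1 (0.0301 to 0.369), the genes that rose in the model group. Gyg had an RR of 0.0824 with the mean of its probe sets. RR was 1.24 for Pygl (0.918 to 1.51; 2.24 as deposited and 2.02 after quantile normalization), 1.21 for Ppp1r3c (1.03 to 1.47; 1.62 as deposited and 1.81 with the mean of probe sets) and 0.775 for Ugp2 (0.525 to 1.30; 0.426 with the mean of probe sets), whose differences between model and normal mice did not pass. Gys2 had an RR of -0.462 (-0.882 to -0.0799; -1.87 as deposited), with an XKA-H mean further from the C57BL/6J mean than the model mean was. For Phka2, Ppp1r3b and Pgm1 the divisor was small beside its spread, and the RR of Ppp1r3b ran from -6.50 to 177 with single arrays left out, so no RR is read for these. An RR shares the model mean with both differences and carries no test. The ranges in brackets are extremes with 1 array left out, not intervals. A jackknife standard error, from the same sets, was 0.27 for Gyg, 0.34 for Gbe1, 0.51 for Pygl, 0.40 for Ppp1r3c, 0.66 for Ugp2 and 0.88 for Gys2. For Gbe1 and Gys2 it was larger than the size of the RR itself, and the Gys2 difference between model and normal mice did not pass.

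Beyond the 9 genes, 37 of 39 listed genes of glycogen and glucose 6-phosphate metabolism and its regulation were measured. Between model and normal livers 3 rose and 1 fell, with a median log2 change of 0.18. Between treated and model livers none passed in limma (2 at an unadjusted p under 0.05, median -0.09), and between treated and normal livers 1 rose and 1 fell (median 0.14). Among all genes 10.6% rose and 2.43% fell between model and normal livers. Between treated and model livers 0.176% of all genes passed (8.61% at an unadjusted p under 0.05), and between treated and normal livers 7.48% passed. The counts among the 37 genes lay near these percentages and are not read as a result about the list.

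Nhlrc1 encodes malin, a ubiquitin ligase of the laforin complex that is known to act on PTG and on glycogen synthase. Its scaled signal was 1460, 1045, 793, 1197 and 866 in the C57BL/6J livers, 2416, 1799, 2548, 2868 and 2719 in the KKAy model livers and 1702, 2201, 2208, 1591 and 2158 in the XKA-H livers. All KKAy livers, treated or not, lay above all C57BL/6J livers, which were near the array median of 1000. Nhlrc1 rose by a log2 change of 1.22 in the KKAy model group (SE 0.24, limma adjusted p = 0.00176) and 0.90 in the XKA-H group (limma adjusted p = 0.0243), each against C57BL/6J. From model to treated livers it was -0.32 (limma adjusted p = 0.754).

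Ppp1r3e, a further glycogen-targeting subunit of protein phosphatase 1, went the other way. Scaled signals were 3106, 2554, 3173, 3188 and 3418 in the C57BL/6J livers, 1400, 1689, 1439, 839 and 1130 in the KKAy model livers and 2177, 1534, 1664, 1390 and 1551 in the XKA-H livers. All KKAy livers lay below all C57BL/6J livers. Ppp1r3e fell, with a log2 change of -1.28 in the KKAy model group (SE 0.23, limma adjusted p = 8.54e-04) and -0.90 in the XKA-H group (limma adjusted p = 0.0198), and 0.38 between treated and model livers (limma adjusted p = 0.695).

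The other 2 genes that rose in the KKAy model group had smaller changes. Phkb, the beta subunit of phosphorylase kinase, had means of 10505 ± 2918 against 6790 ± 1036 (n = 5, log2 change 0.60, limma adjusted p = 0.0403). Ppp1ca, the alpha catalytic subunit of protein phosphatase 1, had means of 61687 ± 8818 against 45991 ± 4229 (n = 5, log2 change 0.42, limma adjusted p = 0.0260). Both calls were lost in the values as deposited, where the log2 change was 0.40 for Phkb (limma adjusted p = 0.126) and 0.22 for Ppp1ca (limma adjusted p = 0.142). After quantile normalization Phkb was at 0.45 (limma adjusted p = 0.0656), and without both livers of highest acute-phase signal Ppp1ca was at 0.35 (limma adjusted p = 0.0654). Their calls also depended on single arrays: each passed in 9 of the 15 sets with an array left out. Phkb did not pass without KKAy model replicate 1, 2 or 4 or C57BL/6J replicate 2, 3 or 4, and Ppp1ca did not without KKAy model replicate 2, 3 or 4 or C57BL/6J replicate 3, 4 or 5. There the adjusted p reached 0.123 for Phkb (without KKAy model replicate 4) and 0.0798 for Ppp1ca (without KKAy model replicate 3). Nhlrc1 and Ppp1r3e passed in all 15 in that of model with normal livers. Between treated and normal livers, Nhlrc1 did not pass without XKA-H replicate 2 or 3 or C57BL/6J replicate 3 or 5 (limma adjusted p up to 0.0691), and Ppp1r3e did not without XKA-H replicate 4 or C57BL/6J replicate 5 (limma adjusted p up to 0.0526). There Nhlrc1 also did not pass as deposited (limma adjusted p = 0.0535), with only the 2 groups fitted (0.0551) or with the replicate number in the fit (0.0593). With the mean of its probe sets Ppp1r3e was at -0.99 there and did not pass (limma adjusted p = 0.118).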

How the data were processed

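Liver RNA of 15 mice was measured on Affymetrix arrays. As deposited by the authors, the files hold 1 linear intensity value per probe set and array. The methods name ArrayTrack 3.5.0 with scaling to a median of 1000, but the deposited array medians were 127 to 182, so each array was scaled to 1000 here. The method of probe summarisation was not given in the sources used here, and the number of arrays limits the precision (median SE of a log2 change 0.283).

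Of 45101 probe sets, 34958 had 1 gene symbol, 932 several and 9211 none. A total of 13 control probe sets were left out, and 34741 probe sets were matched to genes through Entrez identifiers. For each of 18193 genes the probe set of highest mean stood for the gene. Log2 signals were compared in R 4.3.3 with limma 3.58.1 (intensity trend, all arrays in 1 fit, two-sided, Benjamini-Hochberg over all genes, adjusted p under 0.05). Nothing states that mice shared a litter or day, and p-values measure only the spread between these mice. The fit was tested on simulated data. Other packages were data.table (1.17.8), mvtnorm 1.3.3 for the Dunnett test and, under Python 3.11.15, matplotlib 3.10.9 and pandas 2.3.3 for plots. Promoters and coordinates came from RefSeq (GRCm38.p6).

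Members, lists and tests were chosen with earlier results of these data known. The text names all 9 members, other pathway genes past the threshold in any comparison, and the 3 genes most like Gys2 and Pygl over arrays above the array median. Alternatives covered scaling, probe sets, dim genes, the prior, array weights, the replicate number, the Dunnett test, the groups fitted and each array left out. The removal of 2 arrays with high acute-phase signal together was added after values were seen. Of the pathway list, 2 genes were not analysed here.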

Additional observations from a re-analysis of the deposited data

Results flagged for a closer look

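On the log2 scale, in each group of 5 livers, the gap of the highest or lowest liver to its nearest neighbour was divided by the range of the group, for the 9 glycogen genes and the Gys2 to Pygl ratio (30 groups). A share above 0.71 marks a liver far from the others, and chance alone gives this in about 1 group in 20. For Ugp2, XKA-H replicate 1 was far below the other 4 XKA-H livers (share 0.752 on the log2 scale, scaled signal 113595 against 213865 to 263367). The same liver had the highest acute-phase signal of its group, 1.17 above the group mean on the log2 scale, and was the lowest XKA-H liver for Gbe1, Pygl, Phka2, Ppp1r3b and Ppp1r3c as well. For Phka2, C57BL/6J replicate 1 was far above the other 4 C57BL/6J livers (share 0.841 on the log2 scale, scaled signal 11502 against 6582 to 7194). Without these livers the Ugp2 change between treated and model livers was 0.45 instead of 0.24, and the Phka2 change between model and normal livers was 0.17 instead of 0.03, and neither passed in limma.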

How the results depend on the processing

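Of 9 glycogen genes, the 2 called between model and normal livers became 1 with the mean of probe sets, with no intensity trend and without both arrays of high acute-phase signal, and 0 with the Dunnett test adjusted over genes. With Ugp2 added, they became 3 as deposited and after quantile normalization. With Ppp1r3c added, they became 3 without dim genes, with array weights and with the Dunnett test unadjusted over genes. None was called between treated and model livers except 3 with the Dunnett test unadjusted over genes. Between treated and normal livers the count of 0 became 2 (Gbe1 and Ppp1r3b) without dim genes, with array weights and without both acute-phase arrays, and 1 (Gbe1) with only these groups fitted. For the other pathway genes, the 4 called between model and normal livers became 2 in the values as deposited and with no trend, where Phkb and Ppp1ca did not pass. They became 3 after quantile normalization, with the mean of probe sets, with the adjusted Dunnett test and without both acute-phase arrays. With array weights they became 6, and with the unadjusted Dunnett test 5. The 0 between treated and model livers became 1 with the unadjusted Dunnett test. The 2 between treated and normal livers became 1 as deposited, with the mean of probe sets and with only these groups fitted. Leaving out each array gave, in the same order, 1 to 3, 0 to 0 and 0 to 2 glycogen genes and 2 to 5, 0 to 0 and 0 to 2 others. Gbe1 passed between model and normal livers in 25 of 26 alternatives and Gyg in 19, and Nhlrc1 and Ppp1r3e in all 26. The causes were not tested.

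Same-numbered arrays did not deviate together (r -0.04 to 0.09 over 15 pairs, none over 0.1), so the replicate number was not taken as pairing. With the replicate block, the other pathway genes called between treated and normal livers were 1 instead of 2, and the Gys2 to Pygl difference between treated and model livers, 0.63, had an adjusted exact permutation p of 0.1875. All 5 same-numbered differences were positive, and the unadjusted p is the smallest that 5 pairs allow, so this p could not pass and says nothing about stability. No other count changed by over 1.5 times. That ratio difference was 0.51 to 0.72 with single arrays left out and 0.56 without both acute-phase arrays. Between model and normal livers it was -0.18 to 0.10 with single arrays left out.

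Scaling set the shift of all genes: the median log2 change between model and normal livers was 0.15, against -0.04 as deposited and 0.04 after quantile normalization, and 1924 higher and 442 lower calls became 1137 and 1027, and 1602 and 1102. Signs that turned were of genes that had not passed. As deposited and after quantile normalization, the changes between model and normal livers were -0.16 and -0.13 for Phka2, -0.18 and -0.19 for Ppp1r3b and -0.087 and -0.078 for Pgm1. With the mean of probe sets Phka2 gave -0.67 there and 0.60 between treated and model livers, where Pgm1 gave -0.051. Without both acute-phase arrays, the XKA-H to C57BL/6J changes were 0.093 for Ugp2, 0.032 for Pygl and 0.011 for Phka2, and array weights gave 0.039 for Phka2. With single arrays left out, the KKAy model to C57BL/6J changes were -0.080 to 0.17 for Phka2 and -0.16 to 0.28 for Ppp1r3b. Likewise the XKA-H to KKAy model changes were -0.31 to 0.0077 for Gbe1, -0.17 to 0.031 for Phka2 and -0.058 to 0.16 for Pgm1, and the XKA-H to C57BL/6J changes were -0.21 to 0.093 for Ugp2, -0.25 to 0.032 for Pygl and -0.13 to 0.095 for Phka2.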

Other observations

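Over the 15 arrays, among 10846 genes above the array median in all groups, the genes whose log2 signal followed Gys2 most closely were Gpr146 (Pearson r 0.923, Spearman rho 0.871), Tef (0.883 and 0.871) and Slc6a9 (0.87 and 0.829). Those closest to Pygl were Ndufs5 (Pearson r 0.928, Spearman rho 0.907), Acbd5 (0.927 and 0.743) and Abcb4 (0.927 and 0.825). These are descriptions over arrays that share the 3 groups and the same scaling.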
